A study of Sus scrofa with 15 samples.

Results

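LLC-PK1 cells transfected with Tg2, a mutant form of human PKD2, were compared with LLC-PK1 cells transfected with wild-type (WT) human PKD2. LLC-PK1 is an established pig line derived from proximal tubule epithelium. The comparison rests on 6 of the 15 RNA-seq libraries of the study, 3 labelled Tg2 and 3 labelled WT. Tg2 carries c.T1967G/p.L656W, a leucine to tryptophan substitution. All groups received 3 µg of a plasmid with the same backbone, which holds a CAG promoter, a floxed neomycin cassette and a pig H11 sequence, and RNA was taken 48 h later. The WT and Tg2 plasmids both encode PKD2 with a 3×FLAG tag. The remaining libraries, 3 for each plasmid, were those of the empty plasmid (NC), of Tg1 (c.A1532T/p.D511V) and of Tg3 (c.C2224T/p.R742X, a stop codon). The Tg2 and WT plasmids thus differ by 1 base of a transiently expressed transgene, and the libraries are replicate wells, which were not described as independent cultures. The p-values therefore measure the spread between wells, which was estimated jointly over all 15 libraries and not from the Tg2 and WT wells alone.

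PKD2 encodes polycystin-2, a cation channel of the TRP family found in the primary cilium and the endoplasmic reticulum, and it forms complexes with polycystin-1, the product of PKD1. Mutations of either gene cause autosomal dominant polycystic kidney disease, in which tubule cells proliferate and form fluid-filled cysts. Altered calcium and cAMP signaling, MAPK activity, Wnt signaling and inflammatory signaling are known features of cystic tubules, and the Tg2 substitution lies in the pore region of the channel. The comparison of Tg2 with WT asks which transcripts differ between the mutant and the normal channel when both are overexpressed.

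The total count per library was 23485932, 22184915 and 22398918 in Tg2 replicates 1, 2 and 3 and 20999779, 22106028 and 21895167 in WT replicates 1, 2 and 3. Counts were given for 16660 genes, and 11553 of them passed a minimum average of 2 CPM (counts scaled to the library size) across the 15 libraries. The tested genes held 99.83% of the counts. Levels below are CPM normalized by the TMM method, which are not corrected for transcript length. Counts of human PKD2 and of pig PKD2 were not analysed here.

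The libraries expressed markers of kidney epithelium in all groups. LRP2 and AQP1, the endocytic receptor megalin and the water channel of the proximal tubule, were at 260 and 262 CPM over the 15 libraries, and KRT8, an epithelial keratin, was at 2300 CPM. Not every proximal tubule marker was present, since the peptidase MME was at 0.0644 CPM and the organic anion transporter SLC22A8 at 0.813 CPM. The leukocyte marker PTPRC (CD45) was at 0.0167 CPM and the endothelial marker CDH5 at 0.0146 CPM. Of 8 detected fibroblast and mesenchyme markers, 6 were under 1 CPM, whereas VIM, an intermediate filament common in cultured cells, was at 2320 CPM and COL1A2 at 922 CPM.

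Replicates of both groups were uneven. In a principal component analysis of the 15 libraries, the first component held 54.3% of the variance, and Tg2 replicates 1, 2 and 3 scored 21.1, 16.6 and 2.52 on it. WT replicates 1 and 3 scored -14.8 and -23.7, whereas WT replicate 2 scored 6.61 and thus lay between the Tg2 libraries. Between the counts of a pair of WT libraries, the chi-square divided by its degrees of freedom was 25.9 for replicates 1 and 2 and 46.6 for replicates 2 and 3, against 5.76 for replicates 1 and 3. In Tg2, replicate 3 differed most from the others, with 20.8 against replicate 1 and 12.3 against replicate 2, while replicates 1 and 2 gave 4.47. Every pair differed by more than counting noise, so all libraries were kept as separate samples. On this component WT replicate 2 and Tg2 replicate 3 lay toward the other group. Replicate 2 also scored highest in NC (-0.923, against -10.8 and -16.8) and in Tg3 (12.7, against 4.15 and -0.024). It did not in Tg2 or in Tg1, where replicates 1, 2 and 3 scored -7.14, 4.68 and 5.77. Whether replicates of the same number share a factor was not tested. Whether wells were exchanged or handled differently was not tested, and every value below takes the labels as given. Counts of DEGs in the pathway lists and proximal tubule markers are also given without WT replicate 2 and without Tg2 replicate 3. Those libraries were picked because they lay toward the other group, so leaving either out widens the difference between the groups. The larger counts in those fits are therefore no further support for the DEGs.

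With edgeR's quasi-likelihood test and Benjamini-Hochberg adjustment, 684 differentially expressed genes (DEGs) were called between Tg2 and WT, which is 5.92% of the genes tested. To be called, a gene needed an adjusted p-value no higher than 0.05 and at least a 1.2-fold difference (0.26 on the log2 scale). Of these, 382 genes (3.31%) were upregulated in Tg2 and 302 genes (2.61%) were downregulated. The differences were small, with a median log2 fold change of 0.41 among upregulated and -0.37 among downregulated DEGs. In the upward direction 25 DEGs had a log2 fold change of 1 or more, and the highest was 1.67, whereas no downregulated DEG reached -1 and the lowest was -0.93. The 3 Tg2 libraries lay entirely above or below the 3 WT libraries in 535 of the 684 DEGs, and over all tested genes 24.4% had libraries that did not overlap. At the threshold itself, BTBD7, CDS2 and FAM168A lay just inside with a log2 fold change of -0.26 each, and PIK3CB, NHEJ1 and PLOD3 lay just outside with -0.259, -0.259 and 0.259.

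The number of DEGs depended on single libraries. It was 2421 without WT replicate 2, with 12.1% of all genes upregulated and 8.85% downregulated, and 1878 without Tg2 replicate 3, with 9.3% and 6.96%. Counts of list members in these fits are to be read against those shares. It was 1 without WT replicate 1, and 0 without WT replicate 3, Tg2 replicate 1 or Tg2 replicate 2, where edgeR gave 2254, 2585 and 2886 genes with an unadjusted p-value under 0.05. It was also 0 when only the 6 Tg2 and WT libraries entered the fit, so that the spread came from those wells alone. The smallest adjusted p-value there was 0.174 from edgeR, with 2708 genes at an unadjusted p-value under 0.05. With all libraries DESeq2 called 1184. No member of the pathway and marker lists described below was called without WT replicate 1, WT replicate 3, Tg2 replicate 1 or Tg2 replicate 2, so those fits are not repeated for each list. A model with 1 surrogate variable, a factor estimated from the counts, left 14 DEGs. The factor was -0.438, -0.339 and -0.0214 in Tg2 and 0.312, -0.162 and 0.518 in WT. It differed between the compared groups as well as within them, so this model also removes part of the difference between Tg2 and WT, which holds for every value below with 1 surrogate variable. With all libraries in edgeR, the unadjusted p-value was under 0.05 in 3964 genes (34.3%).

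**Figure D1:**
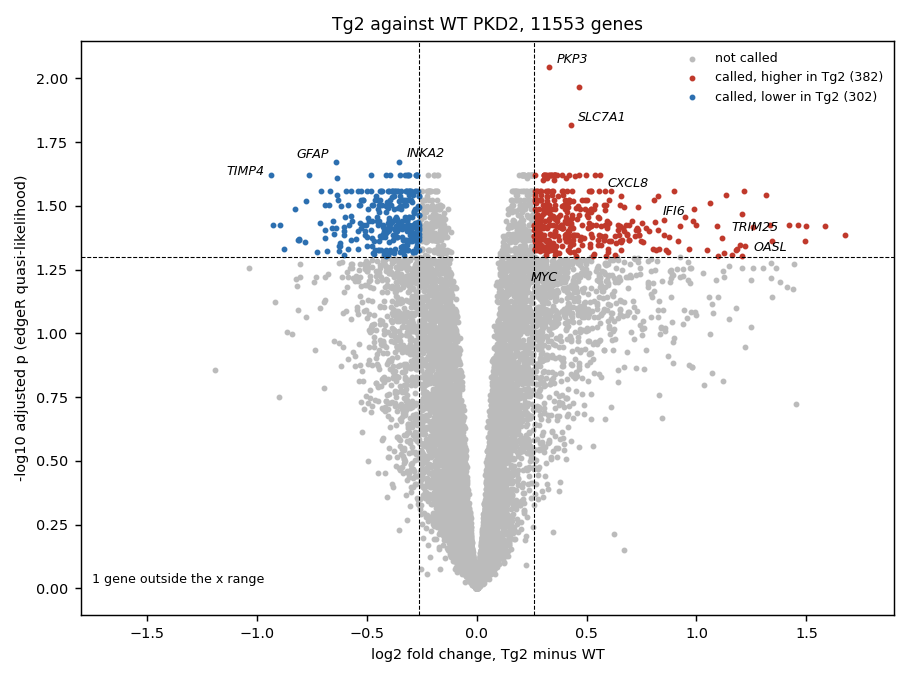
Each point is a tested gene, with the log2 fold change of Tg2 against WT on the x axis and the negative log10 of the adjusted p-value from edgeR on the y axis. The 382 upregulated DEGs reach further from 0 (up to 1.67) than the 302 downregulated DEGs (down to -0.93), MYC lies just under the p-value threshold, and 1 gene, which was not called, lies outside the x range.

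PKP3 and SLC7A1 had the smallest adjusted p-values among DEGs with a symbol, and both were upregulated. PKP3 (ENSSSCG00000027302), which encodes the desmosomal plaque protein plakophilin-3, was at 117, 122 and 113 CPM in the Tg2 libraries and at 90.5, 97.4 and 92.1 CPM in the WT libraries. The lowest Tg2 library was above the highest WT library, and the log2 fold change was 0.33 (standard error 0.04, adjusted p = 0.00902 from edgeR), the smallest adjusted p-value of the comparison. SLC7A1 (ENSSSCG00000029456), the cationic amino acid transporter CAT-1, was at 96.2, 99.2 and 89.8 CPM in Tg2 and 70.3, 75.3 and 66.3 CPM in WT. Its libraries were likewise separate, and the log2 fold change was 0.43 (standard error 0.06, adjusted p = 0.0152 from edgeR). An exact permutation test on 3 against 3 libraries cannot give a two-sided p-value below 0.1, and it gave 0.1 for each gene whose libraries were separate.

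Of the 14 upregulated DEGs named by smallest adjusted p-value, 12 share an adjusted p-value of 0.0239 from edgeR. DKC1, the pseudouridine synthase dyskerin of small nucleolar particles, averaged 88.3 ± 5.73 CPM in Tg2 libraries and 71.4 ± 2.78 CPM in WT libraries (SD, n = 3 each). TSR1 and URB2, both needed for ribosome assembly, had log2 fold changes of 0.35 (standard error 0.06) and 0.36 (standard error 0.06). GEMIN5, a subunit of the SMN complex that assembles spliceosomal particles, had a log2 fold change of 0.37 with a standard error of 0.07, and TRMT61A, a tRNA methyltransferase subunit, had one of 0.36 (standard error 0.06). In each of these genes all Tg2 libraries were above all WT libraries, which the naming rule required.

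Among the other upregulated DEGs of that group, MCU, the pore of the mitochondrial calcium uniporter, was at 100.4, 104 and 90.2 CPM in Tg2 and at 78.3, 85.2 and 74.7 CPM in WT, without overlap (log2 fold change 0.31, standard error 0.06). LLGL1, a cell polarity protein, averaged 164 ± 3.30 CPM in Tg2 libraries and 132 ± 10.9 CPM in WT libraries (SD, n = 3 each). RTN4RL2, a receptor related to the Nogo receptor, had the largest difference of the 14, at a log2 fold change of 0.50 (standard error 0.08). RELB, an NF-kappa B subunit, PPRC1, a coactivator related to PGC-1, DNPEP, an aspartyl aminopeptidase, and TLNRD1, an actin-bundling protein, had log2 fold changes of 0.34, 0.32, 0.35 and 0.31. A gene without a symbol, ENSSSCG00000038783, averaged 58.0 ± 3.01 CPM in Tg2 libraries and 42.0 ± 3.32 CPM in WT libraries (SD, n = 3 each; adjusted p = 0.0108 from edgeR), and ENSSSCG00000001396, also without a symbol, had a log2 fold change of 0.34.

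Among the downregulated DEGs with the smallest adjusted p-values, TIMP4 (ENSSSCG00000033000), an inhibitor of matrix metalloproteinases, had the largest difference. It was at 8.74, 8.61 and 11.3 CPM in Tg2 and at 20.5, 13.8 and 20.5 CPM in WT. Tg2 replicate 3 was the highest of its group and WT replicate 2 the lowest of its own (log2 fold change -0.93, standard error 0.17, adjusted p = 0.0239 from edgeR). That the groups did not overlap was required by the naming rule. GFAP (ENSSSCG00000017343), an intermediate filament protein, was at 6.90, 7.72 and 7.65 CPM in Tg2 and at 12.0, 10.5 and 12.2 CPM in WT. It was thus lower in every Tg2 library (log2 fold change -0.64, standard error 0.09, adjusted p = 0.0213 from edgeR). INKA2, an inhibitor of the kinase PAK4, had the same adjusted p-value and a log2 fold change of -0.35 (standard error 0.05).

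The other 11 genes of this group shared 1 adjusted p-value (0.0239 from edgeR). CA14, a membrane carbonic anhydrase, fell from 3.96 ± 0.295 CPM (SD, n = 3) in WT to 2.33 ± 0.318 CPM (SD, n = 3) in Tg2. RCAN3, a regulator of calcineurin, and PLCD1, a calcium-dependent phospholipase C, had log2 fold changes of -0.48 (standard error 0.09) and -0.41 (standard error 0.08). SQSTM1, the autophagy receptor p62, was at 416, 406 and 442 CPM in Tg2 and at 518, 483 and 524 CPM in WT (log2 fold change -0.27). RPL5, a protein of the large ribosomal subunit that also binds MDM2, averaged 759 ± 32.1 CPM in Tg2 libraries and 919 ± 48.4 CPM in WT libraries (SD, n = 3 each, log2 fold change -0.28). SORD and BCAT2, enzymes of polyol and branched-chain amino acid metabolism, CMPK1, a pyrimidine nucleotide kinase, TSPAN9, a tetraspanin, DZIP3, a ubiquitin ligase, and TMEM45A had log2 fold changes between -0.35 and -0.27. Among downregulated DEGs without a symbol, ENSSSCG00000007858 and ENSSSCG00000032522 had log2 fold changes of -0.43 and -0.71.

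**Figure D2:**
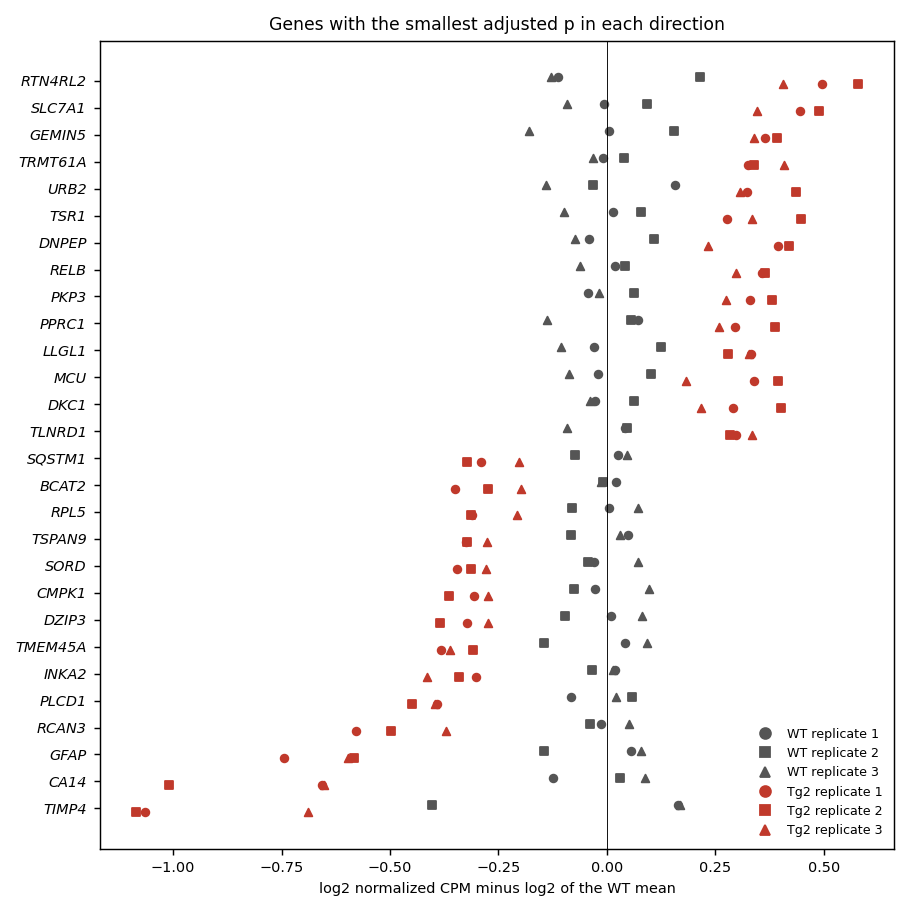
Each row is 1 of the 28 genes named by smallest adjusted p-value, 14 in each direction, with the log2 of its normalized CPM in each library relative to the WT mean on the x axis (red, Tg2 and grey, WT, with 1 marker shape per replicate number). The Tg2 and WT points of a row do not overlap, which the naming rule required, and in TIMP4 WT replicate 2 (grey square, 13.8 CPM) lies nearer to Tg2 than the other WT libraries.

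Genes of the interferon response were higher in Tg2 as a group and varied widely among replicates. All 40 tested members of the type I interferon list had higher levels in Tg2 than in WT, with a median log2 fold change of 0.56 against -0.0028 over all genes tested. Only 3 of the 40 were called, all upregulated, where 3.31% of all genes were called upregulated. In edgeR 39 of the 40 had an unadjusted p-value under 0.05, against 34.3% of all genes. OASL (ENSSSCG00000009921), an oligoadenylate synthetase-like antiviral protein, was at 490, 455 and 311 CPM in Tg2 and at 144, 299.8 and 95.1 CPM in WT. WT replicate 2 was close to Tg2 replicate 3, and the log2 fold change was 1.22 (standard error 0.35, adjusted p = 0.0453 from edgeR). IFI6, an antiviral mitochondrial and endoplasmic reticulum protein, rose from 692 ± 241 CPM (SD, n = 3) in WT to 1215 ± 202 CPM (SD, n = 3) in Tg2 (log2 fold change 0.81, adjusted p = 0.0367 from edgeR). TRIM25, the ubiquitin ligase that acts on the RNA sensor RIG-I, had a log2 fold change of 1.12 with a standard error of 0.31 (adjusted p = 0.0422 from edgeR).

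The interferon genes differed among libraries of the same group as well as between groups. The median level of the 40 genes, as log2 relative to the mean of all 15 libraries, was 0.53, 0.38 and 0.10 in Tg2 and -0.41, 0.25 and -0.78 in WT. WT replicate 2 was above Tg2 replicate 3, so the groups overlapped. The other groups were at -0.31, 0.04 and -0.43 in NC, -0.20, 0.17 and 0.22 in Tg1 and 0.12, 0.32 and 0.00 in Tg3. All 40 genes were called without WT replicate 2, 24 without Tg2 replicate 3 and 0 without WT replicate 3. With 1 surrogate variable in the model, 0 were called in edgeR, 20 were higher and 20 lower, and the median log2 fold change was -0.0011.

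**Figure D3:**
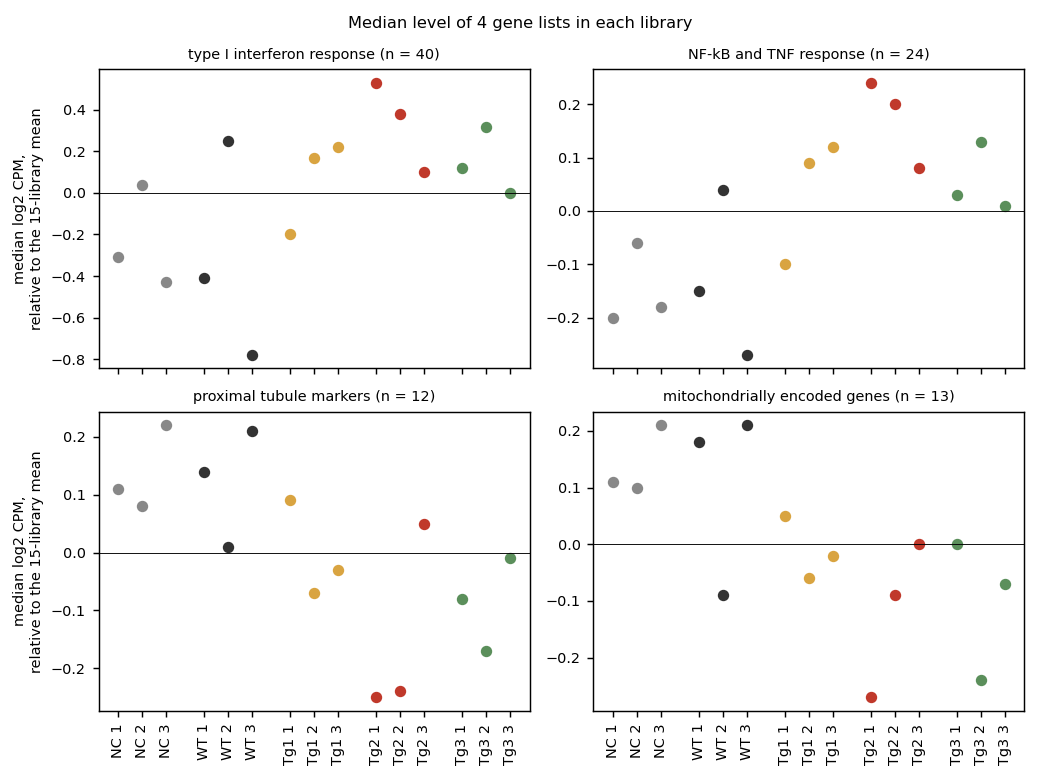
Each panel shows, for 1 gene list, the median log2 CPM of its members in each library relative to the mean of the 15 libraries (y axis), with libraries grouped by plasmid (x axis). In the type I interferon and NF-kB panels Tg2 replicates 1 and 2 are the highest and WT replicate 3 the lowest, with WT replicate 2 above the other WT libraries, and in the proximal tubule and mitochondrial panels Tg2 replicate 1 is the lowest and WT replicates 1 and 3 lie above 0.

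Antigen presentation genes were also higher in Tg2, with few called. All 10 tested members were higher in Tg2 (median log2 fold change 0.43), and 1 was called, against 3.31% of all genes called upregulated. This was PSME2, a subunit of the proteasome activator PA28 (log2 fold change 0.47, standard error 0.13, adjusted p = 0.0431 from edgeR). PSME2 was at 338, 334 and 265 CPM in Tg2 and at 218, 270.2 and 188 CPM in WT, and WT replicate 2 lay above Tg2 replicate 3. All 10 were called without WT replicate 2, and 8 without Tg2 replicate 3. The model with 1 surrogate variable gave 6 higher and 4 lower, a median of 0.0085 and 0 called.

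With all libraries in edgeR and only the groups in the model, NF-kappa B and TNF response genes held the most DEGs of the 20 pathway lists. The interferon list held more without WT replicate 2 (40 against 17) and without Tg2 replicate 3 (24 against 16). Of 24 tested members, 21 were higher in Tg2 and 9 were called, all upregulated, against 3.31% of all genes, and the median log2 fold change was 0.33. Among the ligands, TNF (ENSSSCG00000001404) was at 22.2, 20.6 and 13.1 CPM in Tg2 and at 9.12, 13.1 and 7.31 CPM in WT, so that its lowest Tg2 library and WT replicate 2 nearly coincided (log2 fold change 0.92, standard error 0.24, adjusted p = 0.0381 from edgeR). The neutrophil chemokine CXCL8 (ENSSSCG00000008953) was at 67.8, 73.5 and 55.3 CPM in Tg2 and at 48.4, 46.2 and 39.4 CPM in WT. Its groups were separate and WT replicate 2 did not stand apart (log2 fold change 0.55, standard error 0.12, adjusted p = 0.0277 from edgeR).

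Among the subunits and their partners, RELB, RELA and the coactivator BCL3 had log2 fold changes of 0.34, 0.26 and 0.32. Inhibitors of the pathway were also on the list of DEGs. NFKBIA and NFKBIE, which hold NF-kappa B in the cytoplasm, had log2 fold changes of 0.58 and 0.42, and TNFAIP3, the deubiquitinase A20, rose from 63.6 ± 5.08 CPM (SD, n = 3) in WT to 82.1 ± 0.296 CPM (SD, n = 3) in Tg2. TNFAIP2, a TNF-induced protein, had a log2 fold change of 0.32. The libraries of NFKBIA overlapped, with 172 CPM in Tg2 replicate 3 and 179.9 CPM in WT replicate 2. The list had 17 DEGs without WT replicate 2 and 16 without Tg2 replicate 3. It had 0 with 1 surrogate variable, and the median was 0.099.

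MAPK phosphatases and feedback regulators moved in both directions. Of 15 tested members, 8 were higher and 7 lower, with 3 upregulated and 1 downregulated DEG, where 3.31% and 2.61% of all genes were. DUSP10, a phosphatase of JNK and p38, rose from 51.6 ± 14.1 CPM (SD, n = 3) in WT to 83.3 ± 15.6 CPM (SD, n = 3) in Tg2 (log2 fold change 0.69, adjusted p = 0.0375 from edgeR). DUSP6, a phosphatase of ERK, and SPRY1, an inhibitor of receptor tyrosine kinase signaling, had log2 fold changes of 0.43 and 0.53, both without overlap between groups. GADD45A, a stress protein that acts on p38, was the downregulated DEG, with 258, 270.1 and 281 CPM in Tg2 and 344, 273 and 394 CPM in WT (log2 fold change -0.32, adjusted p = 0.0469 from edgeR). WT replicate 2 lay within the Tg2 values of GADD45A, and without it the list had 3 upregulated and 3 downregulated DEGs. There were 3 and 1 without Tg2 replicate 3 and 0 with 1 surrogate variable.

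Of 33 tested immediate-early and AP-1 genes, 14 were higher and 19 lower with a median log2 fold change of -0.068, and 1 was called, against 5.92% of all genes. The list had 5 upregulated and 10 downregulated DEGs without WT replicate 2, and 4 and 1 without Tg2 replicate 3. Adding 1 surrogate variable gave 25 higher and 8 lower, a median of 0.07 and 0 called. The single DEG was FOSL2, an AP-1 subunit, at 135, 140.2 and 153 CPM in Tg2 and at 197, 152 and 202 CPM in WT (log2 fold change -0.37, standard error 0.09, adjusted p = 0.0348 from edgeR). WT replicate 2 was below Tg2 replicate 3, so its groups overlapped. MYC, a transcription factor and proto-oncogene, was at 318, 341 and 311 CPM in Tg2 and at 301, 262 and 273 CPM in WT. All Tg2 libraries were above all WT libraries, but MYC was not called (log2 fold change 0.21, standard error 0.07, adjusted p = 0.0546 from edgeR). It missed both the adjusted p-value and the fold-change threshold. IER3, an immediate-early survival gene, was at 272, 321 and 281 CPM in Tg2 and at 284, 223 and 278 CPM in WT, with overlap, and was not called (log2 fold change 0.15, standard error 0.09, adjusted p = 0.241 from edgeR).

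ADM (ENSSSCG00000013408), which encodes the vasodilator peptide adrenomedullin, was called. It was at 125, 112 and 99.5 CPM in Tg2 and at 87.6, 94.4 and 78.9 CPM in WT. The lowest Tg2 library was above the highest WT library (log2 fold change 0.37, standard error 0.09, adjusted p = 0.0363 from edgeR). Against the empty plasmid, with NC at 68.0 CPM on average, the log2 fold change of ADM was 0.72 in Tg2 and 0.35 in WT, values that share the libraries of the comparison with WT. ADM was the only DEG among 16 tested vasoactive and growth factor ligands, where 3.31% of all genes were called upregulated. That list had 6 upregulated and 3 downregulated DEGs without WT replicate 2, and 5 and 2 without Tg2 replicate 3. In the model with 1 surrogate variable ADM was not called (log2 fold change 0.12), and 1 other ligand was called higher.

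ADM also belongs to the hypoxia response list, in which 16 of 18 tested members were higher, 3 were called, all upregulated, against 3.31% of all genes, and the median log2 fold change was 0.19. The other hypoxia DEGs were HK2, the glycolytic enzyme hexokinase-2, and BNIP3, a mitophagy receptor. HK2 was at 100.6, 97.3 and 83.1 CPM in Tg2 and at 62.0, 76.1 and 60.3 CPM in WT, without overlap (log2 fold change 0.50, standard error 0.11, adjusted p = 0.0300 from edgeR). BNIP3 had a log2 fold change of 0.36 with a standard error of 0.08. The list had 9 DEGs without WT replicate 2 and 6 without Tg2 replicate 3. It had 0 with 1 surrogate variable, with 11 members higher, 7 lower and a median of 0.021.

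**Figure D4:**
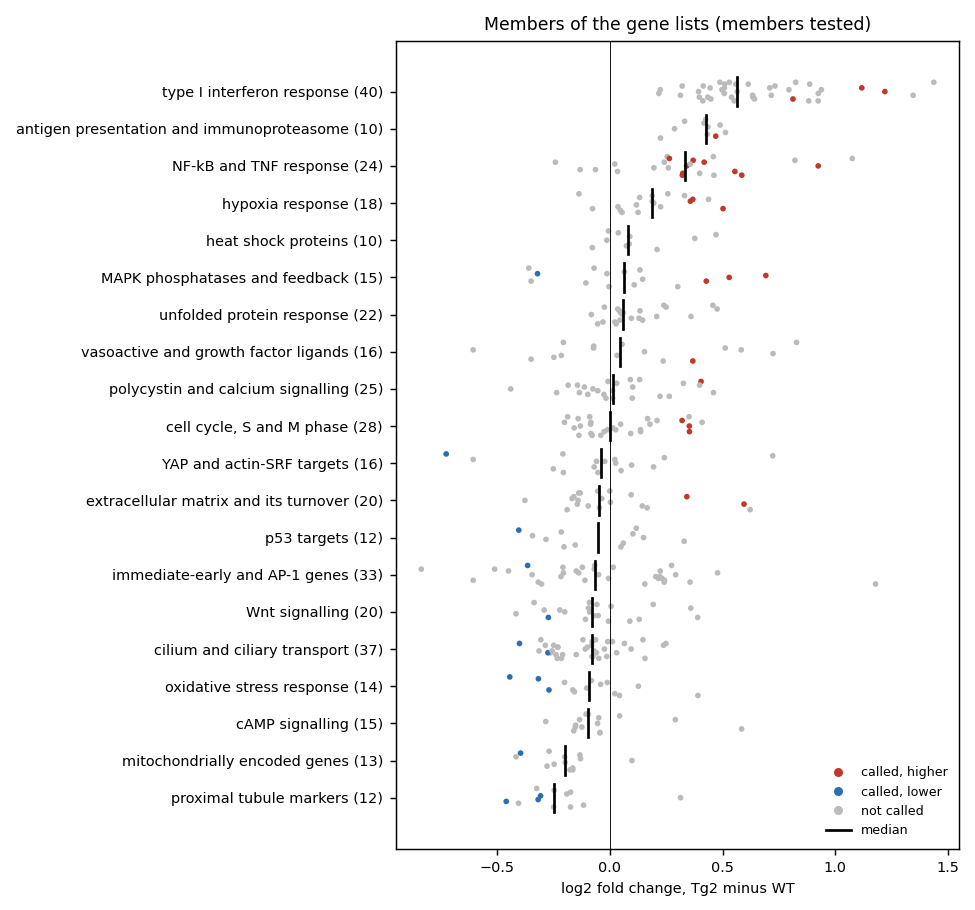
Each point is a tested member of a gene list (19 pathway lists and the proximal tubule markers), with its log2 fold change of Tg2 against WT on the x axis, and the black bar is the median of the list, with the number of tested members in brackets. Lists are ordered by median, from 0.56 for the type I interferon response to -0.25 for proximal tubule markers, and most medians lie near 0.

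Of 25 tested polycystin and calcium signalling genes, 13 were higher and 12 lower, and 1 was called, against 5.92% of all genes. The list had 5 upregulated and 2 downregulated DEGs without WT replicate 2, and 6 and 2 without Tg2 replicate 3. It had 0 with 1 surrogate variable. The DEG was STIM1, the calcium sensor of the endoplasmic reticulum that opens store-operated channels. It was at 91.0, 80.6 and 71.8 CPM in Tg2 and at 60.0, 70.1 and 53.9 CPM in WT, without overlap (log2 fold change 0.40, standard error 0.10, adjusted p = 0.0325 from edgeR). Over the alternatives the lowest log2 fold change of STIM1 was 0.14. ORAI1 and ORAI2, channels that STIM1 opens, had log2 fold changes of 0.22 and 0.33 and were not called (adjusted p = 0.0809 and 0.0586 from edgeR). PKD1 averaged 84.0 ± 7.99 CPM in Tg2 libraries and 78.5 ± 3.09 CPM in WT libraries (SD, n = 3 each, log2 fold change 0.10, adjusted p = 0.309 from edgeR). PKHD1, the gene of recessive polycystic kidney disease, was at 137, 132 and 161 CPM in Tg2 and at 173, 147 and 171 CPM in WT, with overlap (log2 fold change -0.19, standard error 0.07, adjusted p = 0.0878 from edgeR). Without Tg2 replicate 3, PKHD1 was called, with a log2 fold change of -0.28.

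Of 15 tested cAMP signalling genes, 3 were higher and 12 lower and 0 were called by edgeR, against 5.92% of all genes. There were 5 at an unadjusted p-value under 0.05 in edgeR, against 34.3% of all genes. DESeq2 called 1 lower, where it called 4.25% of all genes downregulated. Leaving out WT replicate 2 gave 1 upregulated and 1 downregulated DEG, and leaving out Tg2 replicate 3 gave 2 and 1. Of 37 tested genes of the cilium and ciliary transport, 8 were higher and 29 lower, with a median log2 fold change of -0.082, and 2 were called, a share near the 5.92% of all genes. These were RPGRIP1L, a transition zone protein, which fell from 33.7 ± 4.18 CPM (SD, n = 3) in WT to 25.5 ± 2.92 CPM (SD, n = 3) in Tg2, and WDR19, a subunit of the IFT-A complex, with a log2 fold change of -0.28. Among 20 tested Wnt signalling genes the DEG was PTK7, a planar cell polarity receptor, with a log2 fold change of -0.27, and among 16 YAP and actin targets it was AMOTL1, an angiomotin, with -0.73, shares of both lists near the 5.92% of all genes. The libraries of AMOTL1 overlapped, with 7.88 CPM in Tg2 replicate 3 and 7.30 CPM in WT replicate 2. The Wnt list had 2 upregulated and 5 downregulated DEGs without WT replicate 2, and 1 and 4 without Tg2 replicate 3. The YAP list likewise had 2 and 5, and 3 and 2. The cilium list, without WT replicate 2, had 2 upregulated and 8 downregulated DEGs, and without Tg2 replicate 3 it had 1 and 5. It had 0 with 1 surrogate variable, with 19 members higher, 18 lower and a median of 0.0044, and the Wnt and YAP lists also turned to more members higher than lower (13 of 20 and 13 of 16).

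The cell cycle list held 3 DEGs, all upregulated, against 3.31% of all genes. Of 28 tested members, 14 were higher and 14 lower, the median log2 fold change was 0.00056, and the 3 DEGs were the helicase subunits MCM3 and MCM5 and the sliding clamp PCNA. MCM3 was at 83.5, 78.8 and 74.6 CPM in Tg2 and at 59.2, 67.6 and 58.7 CPM in WT, and PCNA had a log2 fold change of 0.32. All 3 genes had separate libraries, and MCM5 had a log2 fold change of 0.35 with a standard error of 0.07 (adjusted p = 0.0250 from edgeR). The list had 5 upregulated and 1 downregulated DEG without WT replicate 2, and 6 upregulated DEGs without Tg2 replicate 3, and with 1 surrogate variable it had 0. Among 12 tested p53 targets the DEG was TP53INP1, a proapoptotic p53 cofactor, which fell from 253 ± 27.2 CPM (SD, n = 3) in WT to 191 ± 7.84 CPM (SD, n = 3) in Tg2, where 2.61% of all genes were called downregulated. That list had 2 upregulated and 2 downregulated DEGs without WT replicate 2, and 1 downregulated DEG without Tg2 replicate 3. In the model with 1 surrogate variable TP53INP1 was not called (log2 fold change -0.18), and 1 other p53 target was called higher.

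Oxidative stress genes held only downregulated DEGs. Of 14 tested members, 4 were higher and 10 lower, and 3 were called, SQSTM1, GCLM and SLC7A11, where 2.61% of all genes were called downregulated. GCLM, the modifier subunit of the rate-limiting enzyme of glutathione synthesis, was at 209, 212 and 234 CPM in Tg2 and at 316, 248 and 328 CPM in WT, without overlap (log2 fold change -0.44, standard error 0.11, adjusted p = 0.0334 from edgeR). The list had 1 upregulated and 4 downregulated DEGs without WT replicate 2, and 1 and 3 without Tg2 replicate 3, and with 1 surrogate variable it had 0. SLC7A11, the cystine transporter that feeds that synthesis, had a log2 fold change of -0.32 with a standard error of 0.09. In the extracellular matrix list, 7 of 20 tested members were higher and 13 lower, and the DEGs were PLAT, the tissue plasminogen activator, and TIMP1, a metalloproteinase inhibitor, with log2 fold changes of 0.34 and 0.60, where 3.31% of all genes were called upregulated. The matrix list had 3 upregulated and 1 downregulated DEG without WT replicate 2, 3 upregulated DEGs without Tg2 replicate 3 and 0 with 1 surrogate variable. The 22 unfolded protein response genes and the 10 heat shock protein genes tested held 0 DEGs in edgeR. There were 6 and 3 at an unadjusted p-value under 0.05 in edgeR, against 34.3% of all genes. DESeq2 called 2 and 1 higher, where it called 6% of all genes upregulated. These lists held 5 and 3 upregulated DEGs without WT replicate 2, and also 5 and 3 without Tg2 replicate 3.

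Of 12 tested proximal tubule markers, 1 was higher in Tg2 and 11 were lower, with a median log2 fold change of -0.25, and 3 were called, all downregulated, where 2.61% of all genes were. SLC34A1, the sodium phosphate cotransporter, was at 46.5, 44.7 and 56.0 CPM in Tg2 and at 68.7, 60.6 and 73.3 CPM in WT, without overlap (log2 fold change -0.46, standard error 0.10, adjusted p = 0.0300 from edgeR). In 4 of the 12 all Tg2 libraries were below all WT libraries. The marker with a higher level was ALPL, an alkaline phosphatase, at 93.9, 91.6 and 83.6 CPM in Tg2 and 64.7, 88.7 and 63.2 CPM in WT, with overlap, and it was not called (adjusted p = 0.0804 from edgeR). VIL1, the brush border protein villin, and SLC5A2, the glucose transporter SGLT2, had log2 fold changes of -0.32 and -0.31. The summed level of the 14 detected markers was 1097, 1092 and 1311 CPM in Tg2 and 1408, 1273 and 1468 CPM in WT, so Tg2 replicate 3 overlapped WT replicate 2. In bulk RNA, fewer cells of a type and less RNA per cell cannot be told apart. Without WT replicate 2 there were 8 downregulated and 1 upregulated DEG among the markers, and without Tg2 replicate 3 there were 8 downregulated. There were 0 with 1 surrogate variable, and the median was -0.051.

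In the other marker lists SLC12A1 and CD68 were called, where 2.61% of all genes were called downregulated and 3.31% upregulated. The 7 tested kidney epithelium markers were split into 4 higher and 3 lower, and neither edgeR nor DESeq2 called any (0). In edgeR 1 had an unadjusted p-value under 0.05, against 34.3% of all genes. Among 5 tested markers of the loop of Henle, distal tubule and collecting duct, SLC12A1 was downregulated, from 13.5 ± 1.07 CPM (SD, n = 3) in WT to 10.2 ± 0.790 CPM (SD, n = 3) in Tg2. SCNN1G, a subunit of the epithelial sodium channel, was at 19.6, 14.6 and 9.68 CPM in Tg2 and at 4.10, 10.4 and 3.33 CPM in WT, with overlap, and was not called in edgeR (log2 fold change 1.30, standard error 0.41, adjusted p = 0.0552). DESeq2 called 1 of the 5 higher and 1 lower, where it called 6% of all genes upregulated and 4.25% downregulated. The 11 detected markers of this list summed to 84.7, 79.4 and 74.0 CPM in Tg2 and 72.9, 78.5 and 76.9 CPM in WT. Among 3 tested leukocyte markers, CD68, a lysosomal protein of macrophages, was upregulated from 1.73 ± 0.358 CPM (SD, n = 3) in WT to 3.02 ± 0.325 CPM (SD, n = 3) in Tg2. The summed level of the 7 detected leukocyte markers was 34.4, 35.0 and 31.2 CPM in Tg2 and 32.0, 32.3 and 31.4 CPM in WT, with CD3E the most abundant at 20.5 CPM and PTPRC near 0. The 5 detected endothelial markers summed to 5.28, 5.04 and 4.54 CPM in Tg2 and 2.70, 4.54 and 2.45 CPM in WT, mostly from EMCN, with CDH5 and KDR near 0. EMCN, the only endothelial marker tested, was called higher by DESeq2 and not by edgeR (log2 fold change 0.94, adjusted p = 0.0594 from edgeR). Whether these markers have a part in the DEGs was not tested.

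Of the 13 mitochondrially encoded genes, 1 was higher and 12 were lower in Tg2, with a median log2 fold change of -0.20, and 1 was called, where 2.61% of all genes were called downregulated. The DEG was ND6, a complex I subunit encoded on the light strand, which was at 249, 299 and 311 CPM in Tg2 and at 390.1, 315 and 425 CPM in WT. Its groups were separate by the margin between Tg2 replicate 3 and WT replicate 2 (log2 fold change -0.40, standard error 0.10, adjusted p = 0.0359 from edgeR). The median level of the 13 genes was -0.27, -0.09 and 0.00 in Tg2 and 0.18, -0.09 and 0.21 in WT, as log2 relative to the mean of the 15 libraries, so that WT replicate 2 was again on the side of Tg2. Without WT replicate 2 there were 7 downregulated DEGs among them, and without Tg2 replicate 3 there were 4. Adding 1 surrogate variable gave 7 higher and 6 lower, a median of 0.010 and 0 called. The part of these transcripts in the other differences was not tested.

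The empty plasmid places the Tg2 and WT values on a common background. Against NC, edgeR called 974 DEGs in Tg2 (8.43%), 546 upregulated (4.73%) and 428 downregulated (3.70%), and the unadjusted p-value was under 0.05 in 4069 genes (35.2%). In WT against NC it called 0 (0.00%), with 524 genes (4.54%) under that unadjusted p-value and 11 DEGs by DESeq2. These comparisons share their libraries with that of Tg2 against WT, so the values are set side by side only. The 382 genes upregulated in Tg2 against WT had a median log2 fold change of 0.39 in Tg2 against NC and of -0.014 in WT against NC. The 302 downregulated genes had medians of -0.34 and 0.032. Of the genes above, PKP3 had a log2 fold change of 0.26 in Tg2 and -0.07 in WT against NC, SLC7A1 had 0.43 and 0.00, and TIMP4 had -0.93 and 0.00. GFAP and CA14 had log2 fold changes of 0.28 and 0.45 in WT against NC, where neither was called, and of -0.36 and -0.31 in Tg2 against NC. FOSL2 had 0.27 in WT and -0.10 in Tg2 against NC.

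Few genes were called between Tg2 and the other mutants. Against Tg1, edgeR called 16 DEGs (0.138%), 14 higher (0.121%) and 2 lower (0.0173%) in Tg2, with 2284 genes (19.8%) at an unadjusted p-value under 0.05, and DESeq2 called 159. Against Tg3 it called 0 (0.00%), and the unadjusted p-value was under 0.05 in 673 genes (5.83%), with 0 DEGs by DESeq2. Each of these tests is a test of the difference between the effects of the mutants relative to WT, because the WT term cancels. The 382 upregulated genes had median log2 fold changes of 0.24 against Tg1 and 0.16 against Tg3, and the 302 downregulated genes had -0.22 and -0.13, values that share the Tg2 libraries with the comparison that chose these genes. SLC7A1 had a log2 fold change of 0.37 against Tg1 and 0.14 against Tg3. PKP3 had 0.15 and 0.11, and OASL had 0.68 and 0.41. The smallest adjusted p-value against Tg3 was 0.822 from edgeR, so no gene was shown to differ between the Tg2 and Tg3 models at this depth and number of wells.

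**Figure D5:**
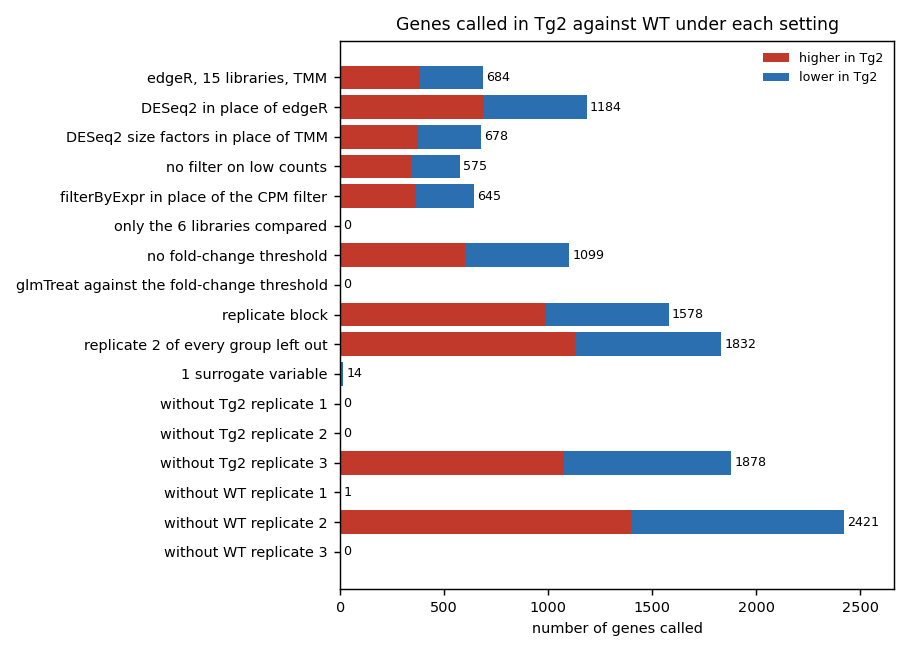
Bars give the number of DEGs in Tg2 against WT (x axis, upregulated in red and downregulated in blue) under each analysis setting (y axis), from 0 to 2421 against 684 with all libraries. The settings that leave out WT replicate 2 or Tg2 replicate 3 give more DEGs, and those that leave out only 1 library, another of Tg2 or WT, give 0 or 1.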

How the data were processed

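The authors extracted RNA from LLC-PK1 cells, sequenced mRNA libraries on an Illumina HiSeq X instrument and quantified reads with Salmon 0.14.1 against the Ensembl release 98 pig cDNA set. The deposited values are whole-number counts per Ensembl gene, not normalized between libraries. How transcripts were combined to genes is not given in the sources used here, and genes with similar transcripts can share reads. Totals ranged from 20216200 to 26132196 counts per library.

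Groups and replicate numbers came from the sample labels. Genes that averaged at least 2 CPM across the 15 libraries were tested with edgeR 4.0.16 in R 4.3.3 (TMM normalization, glmQLFit and glmQLFTest, 1 model of group means over all 15 libraries) with Benjamini-Hochberg adjustment. The thresholds and CPM minimum follow the study, which used DESeq2. Standard errors are the log2 fold change divided by the square root of F. Medians of list levels used log2(CPM + 0.5). Symbols came from the study's lists of DEGs (1437 of 1671 identifiers) and otherwise from a reference table, which together named 10185 of the 11553 genes tested. The genes named are, in each direction, the 14 DEGs with a symbol, the smallest adjusted p-values (ties by unadjusted p-value) and no overlap between libraries, all DEGs of the 20 pathway lists, MYC, ADM, IER3, PKD1 and PKHD1, and up to 2 DEGs without a symbol. A result among these is not reported here. Other genes named, among them members of the marker lists, were chosen after their values were seen. The genes, lists and rules were chosen with earlier results of these data known. Alternatives were DESeq2 1.42.0, its size factors, other filters, the 6 libraries alone, other uses of the fold-change threshold, a replicate block, 1 surrogate variable from sva 3.50.0 and leaving out libraries. The fits were tested on simulated counts that had a common spread for all genes and no factor shared by genes within a library. That test therefore does not cover the unevenness of the replicates seen here.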

Additional observations from a re-analysis of the deposited data

Results flagged for a closer look

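In 16 genes the effects of Tg2 and Tg1 relative to WT differed by edgeR's quasi-likelihood test of Tg2 against Tg1, with adjusted p-values from 0.0160 to 0.0480. Most of them were higher in Tg2 than in Tg1, which can reflect a low level in Tg1 as well as a high level in Tg2. The largest log2 fold change of Tg2 against Tg1 was 0.515 in PTCH1, the Hedgehog receptor. SLC7A1, the cationic amino acid transporter named above, had 0.37, PHIP, a chromatin reader, had 0.366, and KIAA1109, a lipid transfer protein, had 0.345. DMXL1, a regulator of the vacuolar proton pump, had 0.344 with the smallest adjusted p-value (0.0160 from edgeR), MCC had 0.34, RIF1, a regulator of DNA repair and replication timing, had 0.339, and MICAL2, an actin oxidase, had 0.335. ENSSSCG00000038783, without a symbol, had 0.321, MAP3K9, a kinase of the JNK pathway, had 0.319, and ADGRG6, an adhesion receptor, had 0.3. GNAQ, a G protein subunit, NUP205, a nucleoporin, and PPTC7, a mitochondrial phosphatase, had 0.292, 0.287 and 0.262. The genes lower in Tg2 than in Tg1 were RNF5, a ubiquitin ligase, with -0.299, and TMEM42, with -0.415.

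Of these, SLC7A1, RIF1 and ENSSSCG00000038783 were also upregulated and TMEM42 downregulated against WT, in a comparison that shares the Tg2 libraries. The other genes were not called against WT, and for DMXL1, MCC and MICAL2 the log2 fold changes of Tg2 against WT were 0.05, 0.06 and 0.04. DMXL1 was at 113.7, 115.5 and 117.3 CPM in Tg2, at 122, 114.5 and 117.7 CPM in NC and at 85.54, 92.07 and 95.26 CPM in Tg1. In PHIP, KIAA1109, GNAQ, MCC and MICAL2 the Tg1 libraries were also below those of every other group. SLC7A1 differed from these, with Tg1 (68.83, 72.49 and 79.28 CPM) near NC (69.51, 72.47 and 69.59 CPM).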

How the results depend on the processing

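For Tg2 against WT, the count of 684 DEGs became 1184 with DESeq2 (674 of them shared), 1099 without the fold-change threshold, 1832 with replicate 2 of every group left out, 14 with 1 surrogate variable (6 shared), which itself differed between the groups, and 0 with the 6 libraries alone (2708 genes at an unadjusted p-value under 0.05 in edgeR) or with glmTreat (782 genes). It stayed within 1.5 times with DESeq2 size factors (678), no filter (575) and filterByExpr (645). Leaving out single libraries gave 0 to 2421. For Tg2 against NC the count was 0 to 1878 when single libraries were left out. For WT against NC it was 11 with DESeq2 and 0 to 25 without single libraries (25 without WT replicate 2), and for Tg2 against Tg1 159 with DESeq2 and 0 to 117 without single libraries, with 117 without Tg2 replicate 3 and 80 without Tg1 replicate 3. For Tg2 against Tg3 it was 0 with DESeq2, with the replicate block and without single libraries, the only alternatives run for that comparison. The unadjusted p-value from edgeR was under 0.05 in 421 to 1333 genes when single libraries were left out.

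The replicate block gave 1578 DEGs for Tg2 against WT, 1624 for Tg2 against NC, 162 for Tg2 against Tg1, and 0 for WT against NC and for Tg2 against Tg3. Same-numbered Tg2 and WT libraries had correlations of deviations of -0.325, 0.258 and 0.59. Tg2 replicates 2 and 3 correlated best with their own number but replicate 1 with WT replicate 2 (0.58). These correlations cover only Tg2 and WT and are mixed, so they do not settle whether the numbers pair the samples. Under the block 62.7% of the DEGs were upregulated, against 55.8% without it. The block called 38 interferon genes, all upregulated, where it called 8.56% of all genes upregulated.

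Of the 67 called genes named, 66 lost the call in 4 of the 6 fits without a single library and URB2 in 3. All 67 were called without WT replicate 2 and without Tg2 replicate 3, the libraries that lay toward the other group. The 684 DEGs kept their direction and an unadjusted p-value under 0.05 from edgeR in each of the 6 fits. Those fits share libraries with the fit that chose the genes. With 1 surrogate variable 63 named genes lost the call. With no filter on low counts 8 named genes lost it, and with filterByExpr 3 did (SLC7A11, AMOTL1 and SPRY1). SPRY1 also lost it with DESeq2 size factors. IER3 changed sign, to -0.031, with replicate 2 of every group left out. DESeq2 called 10 interferon, 6 antigen presentation and 14 NF-kB genes, all upregulated, where it called 6% of all genes upregulated. The cause of these shifts was not tested. Totals ranged from 20216200 to 26132196 counts, and genes under 2 CPM were not tested at this depth except where the filter was dropped or replaced.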

Other observations

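Further groups of genes were described after their values were seen, by symbol, in Tg2 against WT. Of 40 ribosome assembly factors named NOP, NOC, NOL, UTP, RRP, URB or TSR, 34 were higher in Tg2 and 10 were upregulated DEGs, against 3.31% of all genes, with a median log2 fold change of 0.14. With 1 surrogate variable 29 were higher, 11 were lower and 0 were called in edgeR. NOP2, a methyltransferase of ribosomal RNA, averaged 70.6 ± 4.35 CPM in Tg2 libraries and 58.7 ± 3.10 CPM in WT libraries (SD, n = 3 each), without overlap. NOP56, a core protein of small nucleolar particles, averaged 133 ± 6.53 CPM in Tg2 libraries and 107 ± 13.1 CPM in WT libraries (SD, n = 3 each). The 53 cytosolic ribosomal proteins tested had a median of 0.03, and RPL5 was their only DEG. Of 34 proteasome subunits, 25 were higher and 2 were upregulated DEGs, against 3.31% of all genes, with a median of 0.07. There were 11 upregulated DEGs among the proteasome subunits without WT replicate 2 and 0 with 1 surrogate variable. The 28 nuclear-encoded complex I subunits had a median of -0.06 and 0 DEGs in edgeR. In replication, 16 of 19 MCM, ORC and GINS genes were higher and 5 were upregulated DEGs (GINS3, ORC1, MCM5, MCM3 and MCM10), against 3.31% of all genes. Among 9 DNA polymerase subunits 8 were higher and 3 were upregulated DEGs (POLD1, POLA2 and POLA1), against the same share. ORC1, which marks replication origins, was at 69.6, 68.0 and 60.5 CPM in Tg2 and at 49.3, 51.7 and 47.2 CPM in WT, without overlap. Leaving out WT replicate 2 gave 11 upregulated and 1 downregulated DEG among the assembly factors. It gave 7 upregulated DEGs among the MCM, ORC and GINS genes and 4 among the polymerase subunits. Leaving out WT replicate 1 gave 1 (URB2) among the assembly factors, and leaving out WT replicate 3 gave 0 in edgeR in each of these groups. The MCM, ORC and GINS genes and the polymerase subunits also had 0 without WT replicate 1, Tg2 replicate 1 or Tg2 replicate 2. With 1 surrogate variable both had 0 in edgeR.

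Of 28 transporters of the SLC2, SLC5, SLC17, SLC22, SLC34 and SLC47 families, 20 were lower in Tg2 and 7 were downregulated, against 2.61% of all genes, with a median log2 fold change of -0.20. SLC22A2, the organic cation transporter OCT2, was at 265, 284 and 308 CPM in Tg2 and at 365, 311 and 358 CPM in WT. SLC47A2, which exports organic cations, had a log2 fold change of -0.69. The exception among the DEGs was SLC2A5, the fructose transporter, which had a log2 fold change of 0.56 and libraries that did not overlap. This group, without WT replicate 2, had 3 upregulated and 11 downregulated DEGs, and 0 in edgeR without WT replicate 1, WT replicate 3, Tg2 replicate 1 or Tg2 replicate 2. With 1 surrogate variable 13 were higher, 15 were lower, the median was -0.03 and 0 were called.

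The largest upregulated DEGs with a symbol were CXCL9, a chemokine, ARRB1, beta-arrestin-1, and IL4I1, an amino acid oxidase, with log2 fold changes of 1.67, 1.59 and 1.49. CXCL9 was at 15.7, 14.9 and 7.70 CPM in Tg2 and at 3.35, 7.25 and 1.45 CPM in WT, so the groups were separate by less than 1 CPM. All 7 MHC class II genes and chaperones tested and all 7 complement genes tested were higher in Tg2, with 4 and 3 DEGs, where 3.31% of all genes were called upregulated. With 1 surrogate variable 1 member of each was lower, the medians went from 0.45 and 0.58 to 0.13 and 0.14, and 0 were called in edgeR. Without WT replicate 2 each group had 6 DEGs, and without WT replicate 3 each had 0. C4A, a complement component, was at 51.9, 46.4 and 28.6 CPM in Tg2 and at 14.2, 30.7 and 10.9 CPM in WT, with WT replicate 2 above Tg2 replicate 3.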
